A study of Mus musculus with 12 samples.

Results

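The immediate early response genes described here are Fos, Fosb, Jun, Junb, Egr1, Nr4a1, Ier2, Ier3, Atf3 and Dusp1, measured in whole mouse ovaries. They were taken by name: every array probe whose annotation gives only that gene's symbol was used, and each gene had exactly 1 such probe. They are thus 10 of the 18069 genes that have a probe of their own and 10 of the 36227 probes on the array. Expression was measured on 12 one-colour CodeLink arrays, each hybridized with RNA of 1 mouse, and the mice formed 4 groups of 3. The groups were LY mice (strain label C56BL/6J Ay/a, so spelled there) aged 180 days, black mice (C56BL/6J a/a) aged 180 days, LY mice aged 90 days and black mice aged 90 days. On days 1 and 4 all 12 females received 10 μg/g of Antide, which blocks GnRH and so lowers pituitary gonadotropins. All had also been given eCG, a gonadotropin that makes follicles grow, at 1 IU per 5 g of body weight, and the ovaries were collected 36 h later, on day 7. The study compared the genotypes at each age to ask whether the obesity that LY mice acquire as they age goes with altered ovarian expression. The Ay allele is a deletion that puts agouti under the promoter of the neighbouring gene Raly, which is active in all somatic cells, and LY mice carry it at both ages.

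Immediate early genes are transcribed within minutes of a signal at the cell surface, without new protein synthesis, and their transcripts are short-lived. Most encode transcription factors. Fos, Fosb, Jun and Junb are subunits of AP-1, Egr1 is a zinc finger factor and Nr4a1 an orphan nuclear receptor, and Atf3 is a stress-induced factor of the ATF/CREB family. Ier2 is a nuclear protein induced by growth factors, Ier3 a stress-inducible protein that modulates cell survival, and Dusp1 a phosphatase that switches MAP kinases off again. In the ovary several of them are induced by gonadotropins in granulosa and theca cells, Egr1 and Nr4a1 among them after the LH surge. RNA of a whole ovary averages over all of its cells, so fewer cells of a type and less RNA per cell cannot be told apart.

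Among these genes Nr4a1 at 180 days and Dusp1 at 90 days had the genotype differences with the smallest p, so their promoters are shown, from 250 bases before to 50 bases after the start site of the RefSeq annotation of build GRCm38.p6. Capitals mark the letters TGACG on either strand, the core of the cAMP response element (CRE) through which CREB acts, and in Dusp1 also the full palindrome TGACGTCA, which holds the core on both strands.
Dusp1, chr17:26508423-26508722, minus strand: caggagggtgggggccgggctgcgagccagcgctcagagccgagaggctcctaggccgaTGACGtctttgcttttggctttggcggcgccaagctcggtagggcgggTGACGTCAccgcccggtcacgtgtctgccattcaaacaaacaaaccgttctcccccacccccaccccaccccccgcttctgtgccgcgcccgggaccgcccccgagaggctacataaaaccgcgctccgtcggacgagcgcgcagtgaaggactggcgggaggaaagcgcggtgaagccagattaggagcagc
Nr4a1, chr15:101266596-101266895, plus strand: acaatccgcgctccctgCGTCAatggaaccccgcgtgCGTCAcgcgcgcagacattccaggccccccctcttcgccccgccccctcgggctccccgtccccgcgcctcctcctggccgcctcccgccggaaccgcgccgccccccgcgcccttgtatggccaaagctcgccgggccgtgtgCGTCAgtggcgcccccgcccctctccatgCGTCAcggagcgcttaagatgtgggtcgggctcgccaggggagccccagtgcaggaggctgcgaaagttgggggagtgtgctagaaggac
In Dusp1 the full element began at position -143 from the start site and a second core at -191. In Nr4a1 4 cores, all on the opposite strand, began at -233, -213, -69 and -40. A full element stood in 1.79% of the 32851 promoters of the same length, at least 1 core in 20.8% and 4 or more cores in 0.113%. Promoters of 8 of the 10 genes were searched, and those of Egr1 and Ier2 were not. Of these, 1 held the full element (Dusp1) and 6 at least 1 core. The AP-1 site TGANTCA was found in 0 of the 8, against 7.81% of all promoters, the CArG box of serum response factor in 0, against 1.63%, and the EGR site GCGNGGGCG in 2 (Fosb and Nr4a1), against 5.55%, each searched on both strands. These are letters in a short window, and no factor's binding was measured.

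The deposited values were relative intensity units in which an array's median is about 1, and values are given here after division by that median. A level of 0.2 units is taken as the limit of sensitivity. Fos lay under that limit on 1 of the 12 arrays, the first 180-day LY mouse, and the other 9 genes lay above it on all 12. The genotype labels were borne out by agouti, at 95.7 to 111 units on the 6 LY arrays and 0.169 to 0.368 units on the 6 black arrays. Arrays correlated at 0.970 to 0.987 within a group, 0.962 to 0.984 between the genotypes of an age and 0.918 to 0.938 between the ages. Markers of granulosa cells (9 of 10 measured), theca cells (4 of 6) and oocytes (10 of 10) were present, with 0 of them under the limit on every array. Mice are the replicates, and errors are SD over 3 mice unless stated. Differences are limma's, on the log2 scale of the values floored at 0.01 units, tested on the 31359 probes that reached 0.2 units in at least 1 group mean, with Benjamini-Hochberg adjustment over all of them and a threshold of 0.05. Each probe had 1 spread pooled over the 4 groups, so SEs and intervals at 1 age also carry the spread at the other. An exact test of 3 mice against 3 cannot go below a p of 0.1, so none is given.

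**Figure D1:**
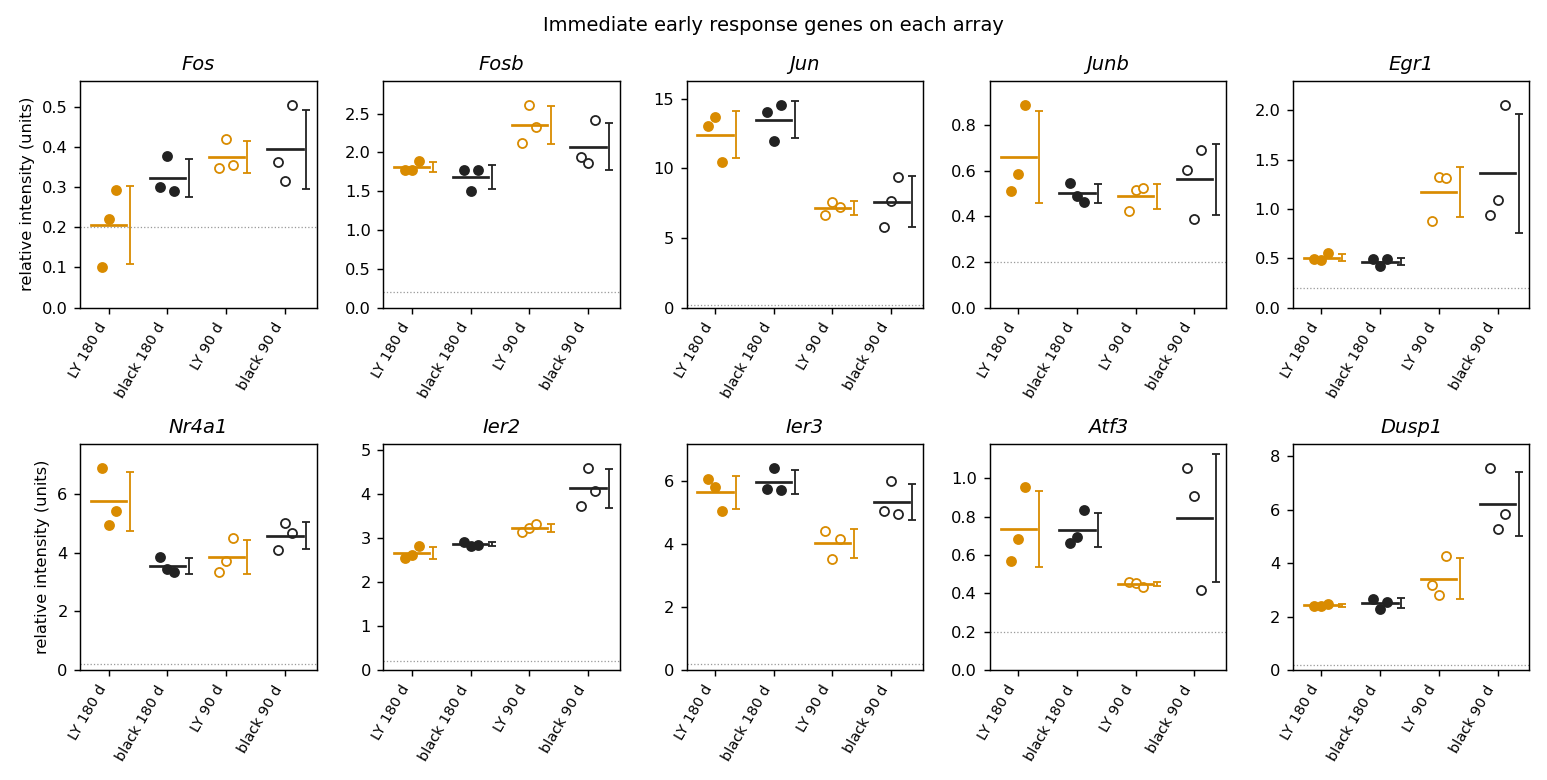
Relative intensity of the 10 immediate early genes on each of the 12 arrays, in units of the array median. Points are mice, horizontal lines group means, bars the SD over 3 mice, and the dotted line the limit of sensitivity of 0.2 units. Nr4a1 of 180-day LY mice lies wholly above that of 180-day black mice, and Dusp1, Ier2 and Ier3 of 90-day LY mice lie wholly below those of 90-day black mice.

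At 180 days 0 of the 10 genes passed the test between LY and black mice, where 0.0446% of all probes did (14 of 31359). Nr4a1 came nearest, with a higher level in LY mice. It read 6.88, 4.95 and 5.43 units in LY mice, against 3.86, 3.45 and 3.36 units in black mice. The LY mice lay clear above the black mice, which was so for 14.2% of all probes at this age and for 1 of the 10 genes. In either direction 22.6% of all probes separated the genotypes. The means were 5.75 ± 1.01 units in LY mice and 3.56 ± 0.27 units in black mice, a log2 difference of 0.68 (SE 0.15, 95% interval 0.35 to 1.01, adjusted p = 0.144). The LY mean at 180 days was the highest of the 4 groups, followed by 90-day black mice at 4.58 ± 0.46, 90-day LY mice at 3.85 ± 0.58 and 180-day black mice at 3.56 ± 0.27 units. Neighbours in this order overlapped, while the 180-day LY mice lay clear of the 180-day black mice.

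Of the AP-1 subunits, Fos had the largest difference at 180 days, with 0.101, 0.221 and 0.294 units in LY mice, against 0.300, 0.377 and 0.291 units in black mice. The highest LY mouse reached just into the range of the black mice, and the lowest LY mouse set much of the distance. The log2 difference was -0.77 (SE 0.33, unadjusted p = 0.0400, adjusted p = 0.393). All of these values lie near the limit of sensitivity. Fosb, Jun and Junb overlapped between the genotypes, with log2 differences of 0.11, -0.13 and 0.36. Junb read 0.888 units in the third LY mouse and 0.465 to 0.584 units in the other 5 mice of that age.

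The remaining genes had small estimates of the genotype difference at 180 days, with wide intervals for Egr1 and Atf3. The spread behind these intervals is pooled over both ages. Egr1 deviated from its group means by -0.14 to 0.12 on the log2 scale at 180 days, but by -0.45 to 0.68 at 90 days. Egr1 averaged 0.506 ± 0.038 units in LY mice and 0.466 ± 0.039 units in black mice, a log2 difference of 0.12 (95% interval -0.46 to 0.70). Dusp1 averaged 2.43 ± 0.06 units in LY mice and 2.505 ± 0.198 units in black mice, a log2 difference of -0.04 with a 95% interval of -0.41 to 0.32. Ier2, Ier3 and Atf3 had log2 differences of -0.10, -0.08 and -0.02, with a 95% interval of -0.69 to 0.65 for Atf3. Over the 10 genes the median log2 difference was -0.03, against 0.03 over all probes, and 6 of 10 estimates were below 0, against 44.1% of all probes. At an unadjusted p under 0.05, 1 of the 10 lay higher in LY mice (Nr4a1), against 7.05% of all probes, and 1 lay lower (Fos), against 4.91%.

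Of the cell type markers 0 of 9 for granulosa cells, 0 of 10 for oocytes and 0 of 4 for theca cells passed the test between the genotypes at 180 days, but some summed levels separated them. Summed over 9 of 10 granulosa cell markers, LY mice read 181 to 243 units and black mice 256 to 336 units, and summed over 10 oocyte markers LY mice read 45.4 to 65.8 units and black mice 68.0 to 89.1 units. Neither pair of ranges overlapped. Summed theca cell markers (4 of 6) overlapped, at 256 to 395 units in LY mice and 214 to 274 units in black mice. Alas2, the only red cell marker tested (1 of 6), read 2.60 to 4.01 units in LY mice and 2.00 to 2.37 units in black mice (log2 difference 0.63, adjusted p = 0.211). Among single probes 0.0446% passed the test and 22.6% separated the genotypes at this age. The part of these values in the Nr4a1 and Fos values was not tested.

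At 90 days Dusp1, Ier2 and Ier3 lay lower in every LY mouse than in every black mouse (3 of 10, against 9.56% of all probes), and 9 of the 10 estimates were below 0, against 50.9% of all probes. Without the third 90-day black mouse 5 of the 10 estimates were below 0, and without the first 90-day LY mouse 7 of 10. Again 0 of 10 passed the test, where 0.0446% of all probes did (14 of 31359). At an unadjusted p under 0.05 there were 4 of the 10, Dusp1, Ier2, Ier3 and Atf3, all lower in LY mice, against 8.06% of all probes lower and 13.3% in either direction at that level. The 10 genes had a median log2 difference of -0.21, against -0.004 over all probes. That median was -0.36 without the first 90-day black mouse, -0.12 without the third, -0.12 without the first 90-day LY mouse and -0.31 without the third.

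Dusp1, the MAP kinase phosphatase, had the largest difference. It read 3.20, 2.81 and 4.27 units in LY mice, against 7.55, 5.26 and 5.85 units in black mice. The highest LY mouse lay well under the lowest black mouse. The means were 3.42 ± 0.76 units in LY mice and 6.22 ± 1.19 units in black mice, a log2 difference of -0.87 (SE 0.17, 95% interval -1.23 to -0.50), or 0.548-fold, with an adjusted p of 0.0837. This SE is pooled over both ages. On the log2 scale Dusp1 deviated from its group means by -0.13 to 0.10 at 180 days and -0.26 to 0.34 at 90 days. Without the third 90-day LY mouse, which had the highest Dusp1 of its group, the difference was -1.04 and the adjusted p 0.0404. That was the only 1 of the 12 mice whose removal brought Dusp1 past the threshold. Over the 12 removals the difference ran from -1.04 to -0.72 and the adjusted p from 0.0404 to 0.261. In the order of the 4 groups 90-day black mice came first, then 90-day LY mice, then 180-day black and 180-day LY mice, and only the 2 groups aged 180 days overlapped.

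Ier2 read 3.15, 3.24 and 3.32 units in LY mice, against 3.73, 4.60 and 4.07 units in black mice. The LY mice lay close together and the black mice were spread above them. The log2 difference was -0.35 (SE 0.09, 95% interval -0.55 to -0.15, adjusted p = 0.156). Ier3 read 4.41, 3.51 and 4.16 units in LY mice, against 5.05, 6.01 and 4.95 units in black mice, again without overlap. Its log2 difference was -0.41 (SE 0.12, 95% interval -0.67 to -0.14, adjusted p = 0.202). Of the 10 genes, 3 separated the genotypes at 90 days, against 16.5% of all probes in either direction.

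Atf3 read 0.459, 0.455 and 0.436 units in LY mice, against 1.05, 0.910 and 0.418 units in black mice. The third black mouse had the lowest value of all 6, so the genotypes overlapped. The log2 difference was -0.71 (SE 0.30, adjusted p = 0.350). Nr4a1, which had been higher in LY mice at 180 days, averaged 3.85 ± 0.58 units in LY mice and 4.58 ± 0.46 units in black mice at 90 days (log2 difference -0.25, adjusted p = 0.495).

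The AP-1 subunits and Egr1 showed no separation at 90 days. Log2 differences were -0.05 for Fos, 0.19 for Fosb, -0.06 for Jun, -0.17 for Junb and -0.16 for Egr1, each with a 95% interval that spans 0. Egr1 read 0.874, 1.32 and 1.32 units in LY mice, against 0.939, 1.09 and 2.05 units in black mice, the last being the highest value of the gene on the 12 arrays. Without the third black mouse the estimates of Fos, Jun, Egr1 and Junb changed sign, to 0.14, 0.11, 0.18 and 7.24e-05.

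**Figure D2:**
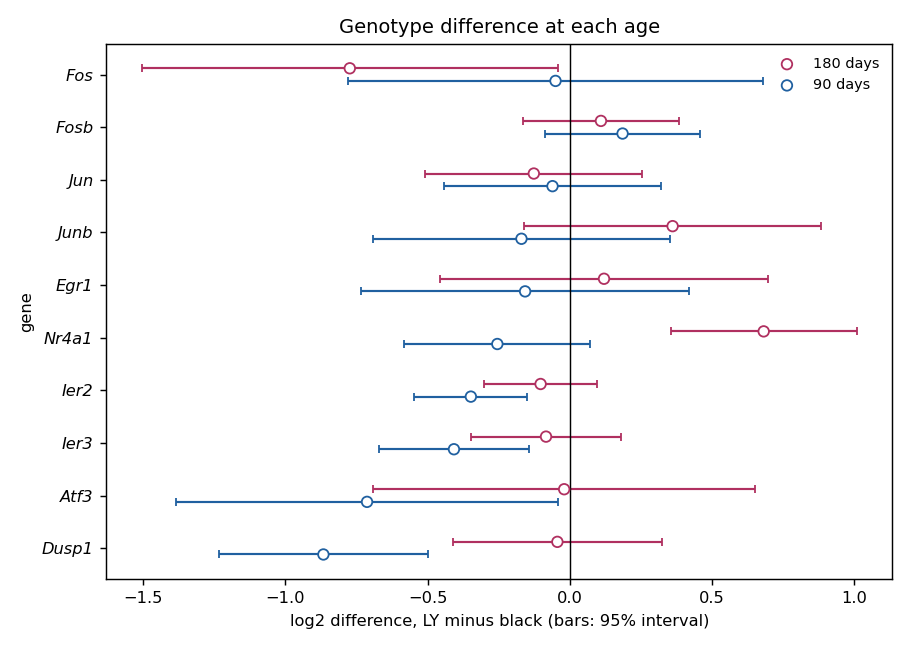
Log2 difference between LY and black mice (LY minus black) for the 10 immediate early genes at 180 and at 90 days, with 95% intervals from limma (3 mice per group). At 180 days only the intervals of Fos and Nr4a1 exclude 0, and at 90 days those of Ier2, Ier3, Atf3 and Dusp1 do, all below 0. The intervals use a spread pooled over all groups and are not adjusted for the number of probes tested.

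Markers of surface epithelium, the cell layer around the ovary, had 0 of 7 past the test at 90 days. Of their estimates 7 of 7 were below 0, against 50.9% of all probes. At an unadjusted p under 0.05 there were 6 of 7, against 13.3% of all probes in either direction. At 180 days 6 of 7 estimates were below 0, against 44.1% of all probes. Summed over these 7 of 8 markers they read 12.6 to 13.7 units in 90-day LY mice and 17.1 to 22.0 units in 90-day black mice, without overlap. Among single probes 0.0446% passed the test and 16.5% separated the genotypes at 90 days. Endothelial cell markers had 0 of 8 past the test, and their sums overlapped, at 35.0 to 45.6 units in LY mice and 44.9 to 50.4 units in black mice. Granulosa cell, theca cell, oocyte, leukocyte, smooth muscle and adipocyte sums overlapped between the genotypes at this age, and 0 markers of any of these lists were under 0.2 units on every array. The part of the epithelial values in the Dusp1, Ier2 and Ier3 values was not tested.

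Whether the genotype difference itself changed with age was tested as the interaction, the log2 difference at 180 days minus that at 90 days. In this test 0 of the 10 genes passed, where 0.00% of all probes did (0 of 31359, with 3799 at an unadjusted p under 0.05). Nr4a1 had an interaction of 0.94 (SE 0.21, 95% interval 0.47 to 1.40, adjusted p = 0.126), with its LY mice above black mice at 180 days and overlapping them at 90 days. Dusp1 had an interaction of 0.82 (SE 0.23, 95% interval 0.30 to 1.34, adjusted p = 0.202). These were the 2 genes with an unadjusted p under 0.05, against 12.1% of all probes. Averaged over both ages, 0 of the 10 genes passed the test between LY and black mice, where 0.00638% of all probes did. The nearest were Dusp1 at -0.46 (adjusted p = 0.163), Ier2 at -0.23 (adjusted p = 0.196) and Ier3 at -0.25 (adjusted p = 0.274), all on the log2 scale. Their 95% intervals, not adjusted for the number of probes, were -0.71 to -0.20, -0.37 to -0.08 and -0.43 to -0.06.

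Other immediate early genes, a list of 29 of which 27 could be tested, were tested beside the members. The list was chosen with earlier results of these data known. At 180 days 0 of 27 passed the test in either direction, against 0.0446% of all probes. There 18 estimates were below 0, against 44.1% of all probes. The median log2 difference was -0.05, against 0.03 over all probes. At 90 days 0 of 27 passed as well, against 0.0446% of all probes, and 25 estimates were below 0, against 50.9% of all probes. The median was -0.30, against -0.004 over all probes. At an unadjusted p under 0.05 there were 4 of 27 at 180 days and 9 of 27 at 90 days, against 7.05% of all probes higher and 4.91% lower at 180 days and 13.3% in either direction at 90 days. Sgk1, a kinase induced by gonadotropins and glucocorticoids, had the largest difference at 90 days. It read 11.0, 9.57 and 23.1 units in LY mice, against 41.0, 33.2 and 32.7 units in black mice, a log2 difference of -1.40 (SE 0.30, adjusted p = 0.107). The third LY mouse stood midway between the other LY mice and the black mice. Klf6, a zinc finger factor, read 4.01, 2.65 and 3.27 units in LY mice, against 6.08, 5.73 and 5.20 units in black mice (log2 difference -0.79, adjusted p = 0.102).

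Zfp36 and Trib1 were the next by p in that list at 90 days. Zfp36 encodes a protein that promotes decay of short-lived mRNAs, and it differed by -0.52 (adjusted p = 0.166). Trib1, a pseudokinase, differed by -0.52 as well (adjusted p = 0.196). At 180 days the 4 genes of the list with the smallest p were Gadd45g, Plk3, Klf6 and Socs3, with log2 differences of -0.50, 0.29, -0.38 and -0.41 and adjusted p of 0.228, 0.322, 0.400 and 0.406. In the interaction 0 of 27 passed, against 0.00% of all probes, and the median was 0.28, against 0.03 over all probes.

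**Figure D3:**
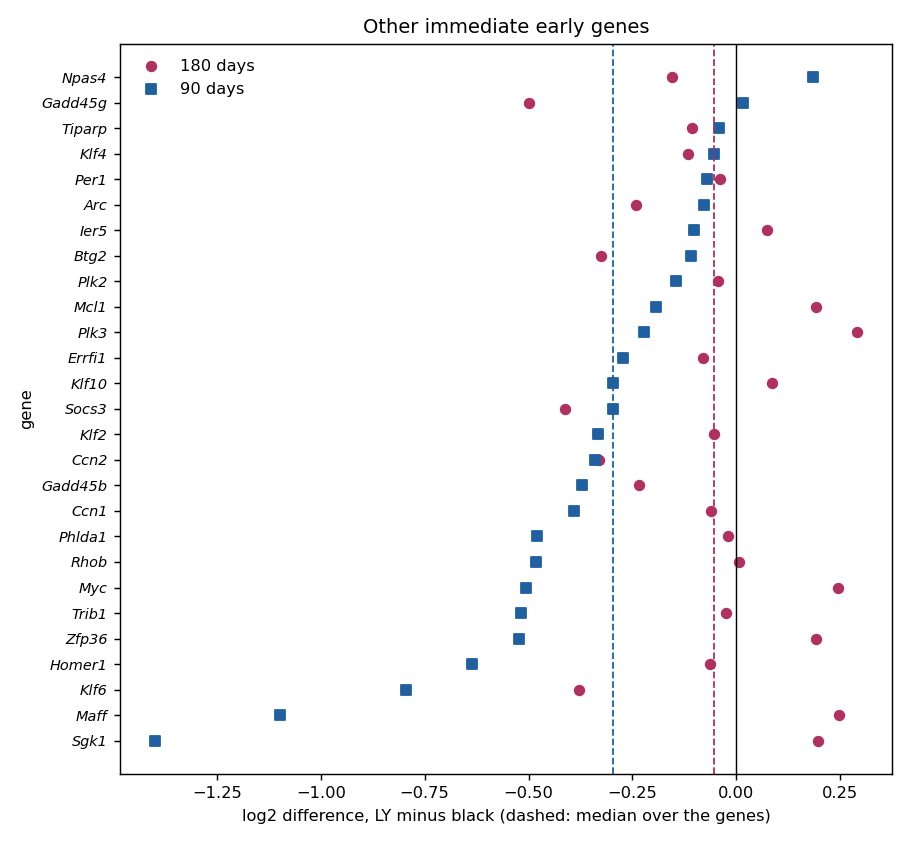
Log2 difference between LY and black mice (LY minus black) at 180 days (circles) and 90 days (squares) for the 27 other immediate early genes tested, ordered by the 90-day value. Dashed lines are the medians, -0.05 at 180 days and -0.30 at 90 days. At 90 days 25 of 27 genes lie below 0, against 50.9% of all probes, with Sgk1 at -1.40.

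The families of the members and the signal path around them were listed as well. Of the other AP-1 family genes 0 of 6 passed the test between the genotypes at 180 days and 0 of 6 at 90 days. Of the other EGR and NR4A genes and their corepressors it was likewise 0 of 6 and 0 of 6. Nr4a3, an orphan nuclear receptor of the family of Nr4a1, lay higher in every LY mouse than in every black mouse at 180 days. That was so for 14.2% of all probes. Nr4a3 averaged 1.64 ± 0.08 units in LY mice and 1.39 ± 0.11 units in black mice (log2 difference 0.24, adjusted p = 0.334). Nr4a2, of the same family, overlapped at that age, at 1.14 ± 0.09 units in LY mice and 1.09 ± 0.11 units in black mice. Among upstream kinases and factors 0 of 11 passed at either age. Of all probes 0.0446% passed at each age (14 of 31359). Srf, serum response factor, averaged 4.18 ± 0.48 units in LY mice and 5.10 ± 0.31 units in black mice at 180 days (log2 difference -0.29, adjusted p = 0.314).

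Feedback inhibitors of MAP kinases, the class to which Dusp1 belongs, also had 0 of 13 past the test at either age. Spry1, an inhibitor of receptor tyrosine kinase signalling, differed most by p at 90 days, with 4.14 ± 0.18 units in LY mice and 5.78 ± 0.56 units in black mice (log2 difference -0.48, adjusted p = 0.190). Dusp4 and Dusp6, phosphatases related to Dusp1, differed by -0.30 and -0.37 at 90 days (adjusted p = 0.287 and 0.358). Heat shock genes had 0 of 11 and targets of the LH surge 0 of 12 past the test at each age. The share over all probes was 0.0446% at each age, so a count of 0 in lists this short says little. The median log2 differences at 90 days were -0.13 for the feedback inhibitors, -0.01 for the heat shock genes and -0.09 for the LH surge targets. Over all probes the median was -0.004.

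Between the ages the differences were larger. Of the 10 genes 7 passed the test of 180 against 90 days over both genotypes, where 59.3% of all probes did, so the share is near that of the array as a whole. The 90-day arrays were run as a later set than the 180-day arrays, and an effect of age cannot be told apart from one of the set. Jun and Ier3 were higher at 180 days (2 of 10, against 33.8% of all probes), and Egr1, Dusp1, Fos, Ier2 and Fosb were lower (5 of 10, against 25.4%). Junb, Nr4a1 and Atf3 did not pass, with log2 differences of 0.14, 0.11 and 0.32.

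Egr1 had the largest of these differences. The lowest, median and highest of the 6 mice read 0.421, 0.488 and 0.549 units at 180 days, against 0.874, 1.21 and 2.05 units at 90 days. Every 180-day mouse lay below every 90-day mouse. The means were 0.486 ± 0.041 units at 180 days and 1.27 ± 0.43 units at 90 days (SD, n = 6), a log2 difference of -1.32 (SE 0.18, adjusted p = 0.000114). Dusp1 averaged 2.47 ± 0.14 units at 180 days and 4.82 ± 1.77 units at 90 days, also without overlap (log2 difference -0.89, adjusted p = 7.73e-05). Ier2 averaged 2.77 ± 0.14 units at 180 days and 3.69 ± 0.57 units at 90 days, again without overlap (log2 difference -0.40, adjusted p = 0.000286).

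Jun was higher at 180 days, the opposite of Fos and Fosb. It read 13.0, 13.7 and 10.5 units in 180-day LY mice and 14.02, 11.95 and 14.51 units in 180-day black mice, against 6.61, 7.59 and 7.24 units in 90-day LY mice and 5.76, 7.62 and 9.39 units in 90-day black mice. All 6 of the 180-day mice lay above all 6 of the 90-day mice, and the genotypes overlapped at both ages. The log2 difference between the ages was 0.82 (SE 0.12, adjusted p = 0.000183). Fos and Fosb, which pair with Jun in AP-1, had log2 differences of -0.63 (adjusted p = 0.0371) and -0.33 (adjusted p = 0.00715), with overlap between the ages. The call of Fos was lost when any of 7 mice was left out, with adjusted p up to 0.0869. Of the 10 genes, 4 did not overlap between the ages (Jun, Egr1, Ier2 and Dusp1), against 36.6% of all probes.

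**Figure D4:**
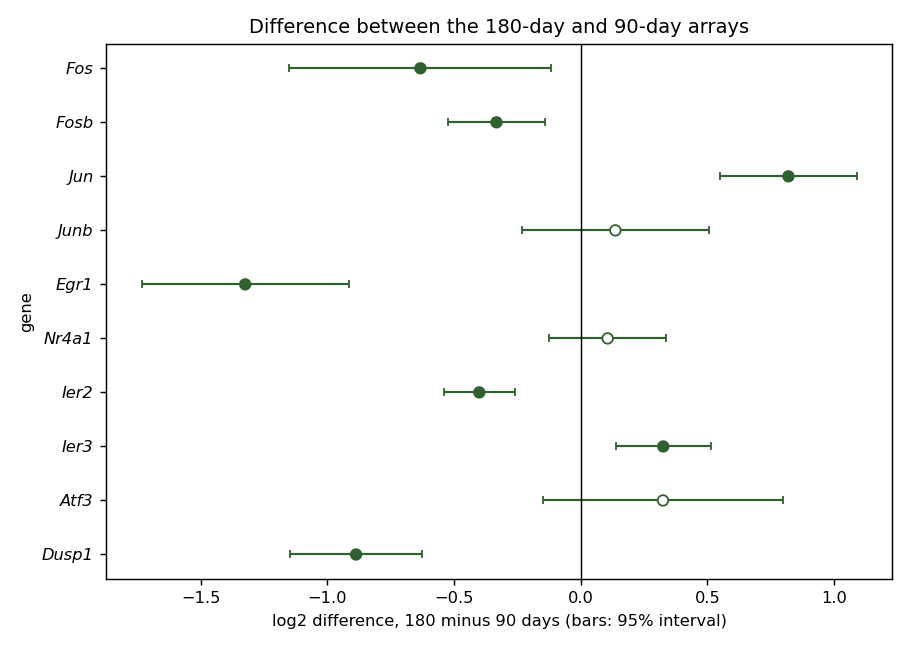
Log2 difference between the 180-day and 90-day arrays (180 minus 90 days, averaged over both genotypes) for the 10 immediate early genes, with 95% intervals from limma over 12 mice. Filled points passed the test. Egr1 lies lowest at -1.32 and Jun highest at 0.82.

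The other lists split by age in both directions too. Of the other immediate early genes 6 were higher and 14 lower at 180 days of 27 tested, against 33.8% of all probes higher and 25.4% lower. Phlda1 (1.99) and the zinc finger factor Klf4 (1.43) rose most on the log2 scale, with Npas4, Gadd45g, Ccn2 and Socs3 also higher. Btg2 (-1.73), Sgk1 (-1.67), Plk2 (-1.05) and Myc (-1.04) had the largest falls, with Rhob, Ier5, Klf10, Gadd45b, Tiparp, Plk3, Ccn1, Per1, Errfi1 and Mcl1 also lower. Of the EGR and NR4A families 5 of 6 were higher at 180 days, against 33.8% of all probes, namely Egr2 (0.68), Egr3 (0.64), Nr4a3 (0.24) and the corepressors Nab1 (1.60) and Nab2 (0.25). The calls of Nab2 and Errfi1 were lost in 13 alternative settings each. Egr1 was thus lower at 180 days while both of its tested paralogues Egr2 and Egr3 were higher. In the AP-1 family Batf and Fosl1 were higher and Atf2 lower. Upstream, Map2k1 and Mrtfb were higher, and Srf, Elk1 and Mapk14 lower. Of the 13 feedback inhibitors Spry2 (1.36) was higher, and Dusp6 (-0.94), Dusp7 (-1.32), Dusp10, Dusp16 and Spred2 were lower. Cell type markers differed between the ages as well. Of the markers tested, 6 of 9 for granulosa cells were lower at 180 days and 1 higher, 5 of 10 for oocytes were lower and 1 higher, and 5 of 8 for leukocytes were higher. Alas2, the only red cell marker tested (1 of 6), was higher at 180 days, at 2.60 to 4.01 units in LY mice and 2.00 to 2.37 units in black mice, against 1.28 to 1.53 units in LY mice and 1.21 to 1.59 units in black mice at 90 days (log2 difference 0.98). Summed leukocyte markers (8 of 10) read 43.8 to 83.0 units in LY mice and 49.8 to 75.2 units in black mice at 180 days, and 36.0 to 49.7 units in LY mice and 31.4 to 48.8 units in black mice at 90 days. The part of these markers in the age differences was not tested.

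Within a group the 10 genes did not move as a block from mouse to mouse. With each group's mean removed, 23 of the 45 pairs of genes had a Pearson r above 0 over the 12 arrays, with a median of 0.04. The highest r was 0.87 (Fosb and Egr1) and the lowest -0.81 (Fosb and Ier3). Without the third 90-day black mouse these pairs read 0.74 and -0.85. Other pairs moved far more without that mouse. Fos and Atf3 went from 0.05 to 0.75, Egr1 and Atf3 from -0.67 to 0.14, and Jun and Junb from -0.14 to -0.66. The third 180-day LY mouse had the highest value of its group in 7 of the 10 genes, and the first 90-day LY mouse the lowest in 7 of the 10. The third 90-day black mouse was highest in 5 (Fos, Fosb, Jun, Junb and Egr1) and lowest in Atf3 and Ier3. Atf3 and Fos were the most variable. Fos deviated from its group mean by -0.89 in the first and 0.65 in the third 180-day LY mouse on the log2 scale, whereas Ier2 stayed between -0.14 and 0.16 of its group means in all 12 mice.

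**Figure D5:**
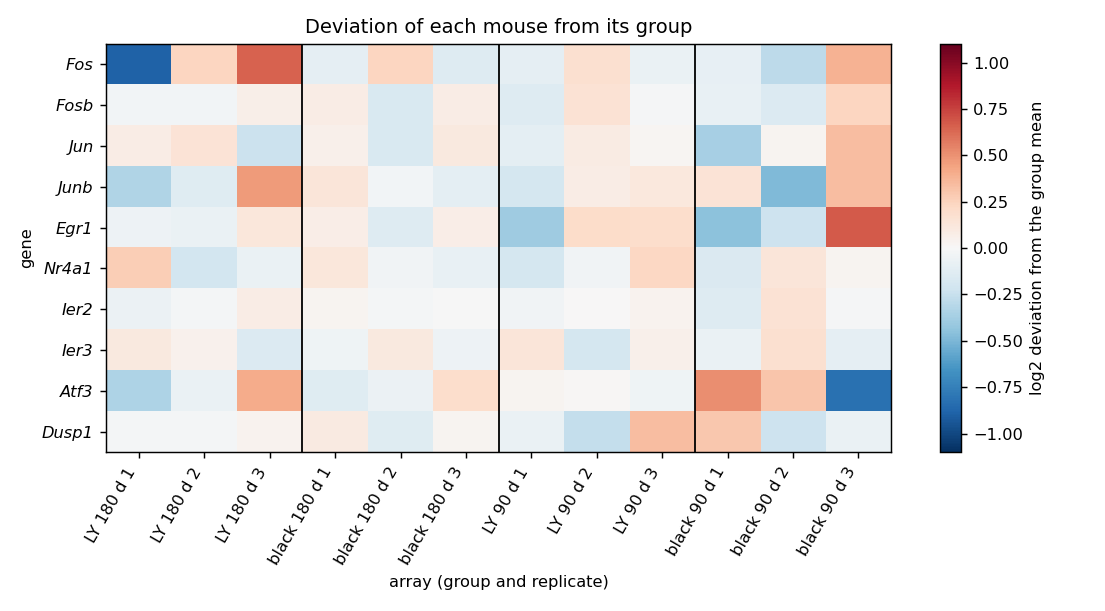
Deviation of each mouse from the mean of its group for the 10 immediate early genes, on the log2 scale (red above, blue below; LY before black and 180 before 90 days). Fos in the first 180-day LY mouse lies at -0.89, and the third 90-day black mouse is above its group in the AP-1 subunits and Egr1 and below it in Atf3.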

How the data were processed

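Relative intensity was measured in ovaries of 12 mice on CodeLink Mouse Whole Genome Bioarrays, 1 mouse per array. The authors scanned the slides with GenePix, corrected the background with CodeLink software and scaled slides to the 50th percentile in GeneSpring; the deposited intensity values are linear. The methods also name a centring on gene medians that these values do not carry. An array had 166 to 503 missing values and 67 to 144 negative ones, and 80.8% to 83.3% reached 0.2 units. The number of arrays limits the precision.

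Here each array was divided by its median (1.00 at 180 days, 1.04 at 90 days), floored at 0.01 units and taken to log2. The 31359 probes whose mean reached 0.2 units in any group were fitted by limma 3.58.1 in R 4.3.3 (4 group means, residual degrees of freedom 8, prior 2.46). Of all probes 21615 carry 1 symbol, 681 several and 13931 none in the platform annotation. Genes named beside the members are those of 16 lists that passed the test, or were among the 4 smallest p in a comparison. Nr4a2 is also named for comparison, and Maff and Homer1 as dim probes. Heat shock genes, LH surge targets and cell type markers are given by counts or sums. The members and lists were chosen with earlier results of these data known. Alternatives were another floor, a pseudocount of 0.1, quantile scaling, values as deposited, other filters, a robust trended prior, array weights, a replicate block, each array left out, 1 age alone and the methods' t-test.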

Additional observations from a re-analysis of the deposited data

Results flagged for a closer look

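Zfp36 and Mcl1, both in the list of other immediate early genes, went opposite ways between the genotypes at the 2 ages, with every LY mouse above every black mouse at 180 days and below every black mouse at 90 days. They were singled out for this pattern, which 560 of 30795 probes (1.82%) showed. Zfp36, whose product promotes mRNA decay, averaged 3.96 ± 0.22 units in LY mice and 3.46 ± 0.16 units in black mice at 180 days, and 2.82 ± 0.28 units in LY mice and 4.10 ± 0.85 units in black mice at 90 days (SD, n = 3 each). Its interaction was 0.71 on the log2 scale (limma adjusted p = 0.187). Mcl1, which opposes apoptosis, averaged 8.56 ± 0.51 units in LY mice and 7.48 ± 0.28 units in black mice at 180 days, and 8.87 ± 0.40 units in LY mice and 10.2 ± 0.9 units in black mice at 90 days, with an interaction of 0.39 (limma adjusted p = 0.246). Neither interaction passed the test over all probes.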

How the results depend on the processing

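Of 1095 values of the 10 genes under an alternative, 1055 kept their direction and their side of the threshold, 8 lost a call, 11 gained one and 21 changed sign. Counts of genes called changed as follows. At 180 days 1 was higher (Nr4a1) with an intensity trend and robust prior (limma adjusted p = 0.0482), and 1 (Nr4a1) by the methods' t-test without adjustment. At 90 days 1 was lower (Dusp1) with a floor of 0.2 units (adjusted p = 0.0474), a filter at 1 unit (0.0243), the robust prior (0.0221) and without the third LY mouse (0.0404), and 3 by the methods' t-test without adjustment (Dusp1, Ier2 and Ier3). Over all settings the adjusted p of Dusp1 reached 0.487. In the interaction 1 was higher (Nr4a1) with the filter at 1 unit and with the robust prior. Leaving out 1 mouse at a time, the members' median ran from -0.36 to -0.12 at 90 days and from 0.26 to 0.40 in the interaction, and the median between the ages was -0.33 with the filter at 1 unit. The call of Fos between the ages was lost without a filter (adjusted p = 0.0501) and without the first (0.0705) or the third (0.0741) 180-day black mouse, the first (0.0518) or the third (0.0869) 90-day black mouse, or the first (0.0518), the second (0.0780) or the third (0.0569) 90-day LY mouse. Estimates that changed sign under another setting were those of Jun at 90 days with quantile scaling (0.0082) and, with array weights, Fos at 90 days (0.00056) and Egr1 over both ages (0.0052). Dnaja1, a heat shock gene, was higher at 180 days (0.57) but lower with quantile scaling (-0.44), both past the threshold.

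Leaving out 1 mouse at a time turned the sign of some small estimates, none of them called. At 180 days Dusp1 ran from -0.11 to 0.0040 and Atf3 from -0.23 to 0.15. At 90 days Fos ran from -0.20 to 0.14, Jun from -0.25 to 0.11, Junb from -0.41 to 7.24e-05 and Egr1 from -0.38 to 0.18. In the interaction Jun ran from -0.23 to 0.12, Egr1 from -0.061 to 0.50 and Fosb from -0.19 to 0.0015, and over both ages Junb from -0.026 to 0.18 and Egr1 from -0.13 to 0.15.

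Probes called at 180 days numbered 14, and 157 with array weights, 114 with the robust prior, 111 with the filter at 1 unit, 52 with the floor of 0.2 units, 33 with the pseudocount, 3 with the replicate block, 2 on 1 age alone, 1 without a filter and 4189 or 0 by the methods' t-test without or with adjustment. At 90 days they numbered 14, and 3, 208, 243, 132, 25, 2, 2, 4 and 2766 or 1 under the same settings in that order. Leaving out 1 mouse gave 1 to 21 at 180 days and 1 to 66 at 90 days, the most without the third 90-day LY mouse. The replicate numbers were not taken to pair the mice. Deviations of same-numbered mice correlated at -0.072 to -0.003 at 180 days and 0.051 to 0.148 at 90 days. Differently numbered mice were not compared, so these values cannot exclude a pairing. With the replicate block the count of members called stayed at 0 at each age and 7 between the ages. Each gene had 1 probe, so no second probe could be compared. Dim probes such as Fos are limited by the signal over background.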

Other observations

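Among 14177 other genes at or above 0.2 units on every array, C230072F16Rik, Fibp and 4930406D18Rik varied most like the mean of the 10 immediate early genes from mouse to mouse. The measure was Pearson's r over the 12 arrays after each group's mean was removed, at 0.978, 0.963 and 0.958, given as a description of these arrays. These genes were picked as the highest of the 14177. Pairs of the 10 immediate early genes themselves had a median r of 0.04. That is an r between single genes, so it cannot be set against an r with the mean of 10 genes.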
